A study of Homo sapiens with 4 samples.

Results

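The accessible chromatin of 10 genes of the extracellular matrix was followed across the HRAS transformation of a human mammary epithelial line. The genes were FBN1, FBN2, FN1, TNC, SPARC, THBS1, COL4A1, COL4A2, COL5A1 and COL12A1. They were chosen by name, and their members are the ATAC-seq peaks that lay in the gene body or within 100 kb of its transcription start site (TSS). Overlapping peaks of the 4 libraries were merged into regions, and 95 of the 60886 regions in all lay at these genes. ATAC-seq uses a transposase that inserts adapters where DNA is not wrapped tightly, so a peak marks an accessible locus.

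MCF10A is an immortalized and nontransformed line of mammary epithelium. G12V denotes the same line after the introduction of HRAS with the G12V point mutation, a change that holds the GTPase in its active state. By the study's account these cells first stopped growing and resumed growth after some weeks, so they are a population that came through that arrest. The oncogene was brought in by lentivirus together with a GFP vector, and the cells were selected with hygromycin, so virus, GFP and drug selection cannot be told apart from HRAS in these comparisons. Each cell type had 2 libraries. Nothing in the sources used here ties MCF10A replicate 1 to G12V replicate 1, or ties the replicate 2 libraries to each other.

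The lists differed in size within a cell type more than between the cell types. On the autosomes and X there were 12888 peaks in MCF10A replicate 1, 34463 in MCF10A replicate 2, 14042 in G12V replicate 1 and 46673 in G12V replicate 2. A locus that misses the caller's threshold in a short list looks closed there, and the read depth behind the lists is unknown. Peak scores were therefore compared as percentiles within each list, where 100 is the best-scoring peak. Such a percentile still depends on how many peaks the list holds. A region was called gained when both G12V lists and neither MCF10A list had a peak in it, lost in the opposite case, and shared when all 4 lists had one. Of 12 epithelial markers, a promoter peak was listed for 3 in MCF10A replicate 1, 2 in MCF10A replicate 2, 0 in G12V replicate 1 and 3 in G12V replicate 2. At the start of the gene record 7 had none in any library, namely KRT5, KRT14, KRT18, KRT6A, CDH1, EPCAM and TP63. ITGB4 had a promoter peak in both MCF10A libraries and in neither G12V library. Of 9 mesenchymal markers the numbers were 0, 6, 2 and 4 in the same order. Over all protein-coding genes the shares were 21.3%, 41.6%, 23.1% and 44%. The labelled epithelial identity therefore could not be read from promoter peaks alone. Leukocyte marker promoters with a peak numbered at most 1 of 5 in a library (CD14), and KDR in MCF10A replicate 2 was the only peak at 3 endothelial promoters.

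Fibrillins, encoded by FBN1 and FBN2, assemble into the microfibrils that carry elastin and hold latent TGF-beta. Fibronectin, encoded by FN1, is a secreted glycoprotein that integrins pull into fibrils, and it is widely used as a mark of mesenchymal cells. TNC (tenascin C), SPARC and THBS1 (thrombospondin 1) are matricellular proteins, which act on cell contacts more than on tissue strength. COL4A1 and COL4A2 form the network of the basement membrane, the sheet on which mammary epithelium rests, while COL5A1 belongs to a collagen that starts fibrils and COL12A1 to one that decorates their surface.

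At the 10 genes, MCF10A replicate 1 had 23 peaks, MCF10A replicate 2 had 55, G12V replicate 1 had 24 and G12V replicate 2 had 76. Divided by list size the libraries were close, with 17.8, 16, 17.1 and 16.3 peaks per 10000 listed, in that order. The 10 genes thus held about the same share of every list, and the replicates of a cell type differed in it as much as the cell types.

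**Figure D1:**
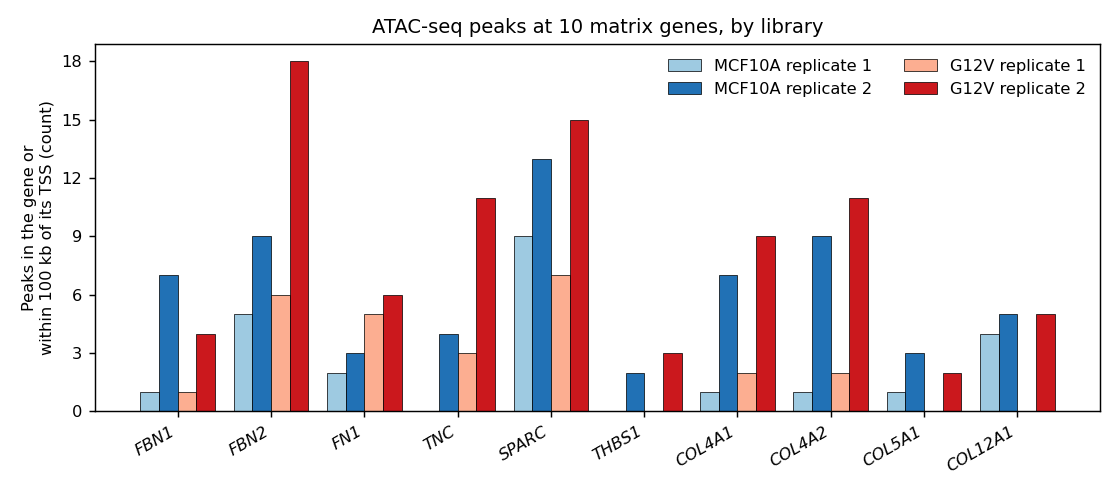
Number of peaks in each gene or within 100 kb of its TSS (vertical axis, count) for the 10 genes (horizontal axis), with 1 bar per library. FN1 is the gene whose 2 G12V bars (5 and 6) both stand above its 2 MCF10A bars (2 and 3), and COL12A1 has no bar for G12V replicate 1.

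FBN1 lies on the minus strand of chromosome 15. MCF10A replicate 1 had 1 peak, MCF10A replicate 2 had 7, G12V replicate 1 had 1 and G12V replicate 2 had 4. The groups overlapped. G12V libraries averaged 2.50 ± 2.12 peaks (SD, n = 2) and MCF10A libraries averaged 4 ± 4.24 (SD, n = 2), so the difference was -1.50 (exact two-sided permutation test, p = 1, where the smallest p that 2 against 2 libraries allow is 0.333). This difference changed sign, to 1.5, without MCF10A replicate 2 and was 0 without G12V replicate 1.

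The single FBN1 peak of G12V replicate 1 was at the promoter. The promoter region (coordinates here and below are hg19) covered the TSS and the first untranslated exon, and reached into the divergent long non-coding gene FBN1-DT. It was gained, at percentile 30.6 in G12V replicate 1 and 31.3 in G12V replicate 2, so both peaks stood in the lower-scoring part of their lists. The region was gained neither in the better-scoring 50% of each list nor with equal list sizes. MCF10A replicate 1 had no peak within 35.0 kb of the TSS. MCF10A replicate 2 had a weak peak at percentile 9.56 that began 748 bp downstream of the TSS, at the first coding exon, outside the promoter stretch of 1000 bp upstream to 500 bp downstream and not overlapping the gained region.

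Upstream of FBN1, 2 of 4 regions were found in both cell types. At 35.0 kb upstream, MCF10A replicate 1 had a peak at percentile 33.3, MCF10A replicate 2 at 23 and G12V replicate 2 at 75.6, and G12V replicate 1 had none. At 77.4 kb upstream, in an intron of CEP152, only the longer lists had a peak (71.5 in MCF10A replicate 2 and 84.3 in G12V replicate 2). Inside the gene, an intronic region 79.4 kb downstream of the TSS was likewise listed in MCF10A replicate 2 (31.7) and G12V replicate 2 (51.4). The remaining regions of FBN1 were in MCF10A replicate 2 alone, with percentiles from 9.56 to 35.5, and 2 of them lay upstream, at 37.1 kb (23.2) and 38.3 kb (10.8). FBN1 had no lost and no shared region.

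FN1, on the minus strand of chromosome 2, was the gene among the 10 in which the count of peaks separated the cell types. MCF10A replicate 1 had 2 peaks, MCF10A replicate 2 had 3, G12V replicate 1 had 5 and G12V replicate 2 had 6. The 5 peaks of G12V replicate 1 lay in 4 regions. Every G12V count was above every MCF10A count, and G12V replicate 1 has a shorter list than MCF10A replicate 2. Divided by list size the groups overlapped. The values were 1.55 and 0.870 peaks per 10000 listed in MCF10A replicates 1 and 2. In G12V replicates 1 and 2 they were 3.56 and 1.29. The mean counts were 5.50 ± 0.707 and 2.50 ± 0.707 (SD, n = 2 each), a difference of 3 (exact two-sided permutation test, p = 0.333, the smallest possible here). Among all 20098 protein-coding genes, 3.77% had more peaks in both G12V libraries than in both MCF10A libraries and 1.41% had fewer, against 1 and 0 of the 10.

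By the study's account FN1 was down-regulated after transformation and FBN1 was up-regulated, and peaks were not set against expression here. The peaks inside the FN1 gene were all from G12V cells. Only the first region below was in both G12V libraries, and the share of all genes with such a pattern was not counted. An intronic region 24.8 kb downstream of the TSS, chr2:216275489-216276022, was gained, at percentile 40.3 in G12V replicate 1 and 74.0 in G12V replicate 2. It was gained with equal list sizes but not in the better-scoring 50% of each list. G12V replicate 1 had further intronic peaks 39.1 kb (percentile 69.1) and 45.8 kb (26.2) downstream, which G12V replicate 2 lacked. G12V replicate 2 had one 2.08 kb downstream (45.9), which G12V replicate 1 lacked. The FN1 promoter, chr2:216300727-216301504, which reaches into the divergent FN1-DT, had a peak in G12V replicate 2 only, at percentile 73.4. It was therefore not called gained, and G12V replicate 2 is also the longest list.

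Upstream of FN1 the order was mixed. An intergenic region 50.9 kb upstream, chr2:216351743-216352182, was lost: it stood high in both parental lists, at percentile 88.0 in MCF10A replicate 1 and 74.1 in MCF10A replicate 2, and neither G12V list had it. It was also lost in the better-scoring 50% of each list and with equal list sizes. A region 92.4 kb upstream, chr2:216393149-216394653, was shared, at percentiles 42.3, 87.9, 81.0 and 94.7 in MCF10A replicates 1 and 2 and G12V replicates 1 and 2. Ranked only among the 5090 shared regions of each library, a scale that does not use list length, it stood at 26.6 and 47.9 in MCF10A and at 61.0 and 61.7 in G12V, so the G12V ranks lay above the MCF10A ranks. FN1 thus held a gained, a lost and a shared region. The FN1 windows below carry the letters of the regions that appeared and vanished (GRCh37, plus strand, 300 bp at the midpoint of the better-scoring peak, chr2:216275591-216275890 and chr2:216351858-216352157). Capitals mark motif matches. The gained window holds the AP-1 heptamer at bases 156 to 162 and again at bases 194 to 200, counted from 1 at the left end. The lost window holds a p53 match with 3 mismatches at bases 135 to 154.
FN1 intron, gained: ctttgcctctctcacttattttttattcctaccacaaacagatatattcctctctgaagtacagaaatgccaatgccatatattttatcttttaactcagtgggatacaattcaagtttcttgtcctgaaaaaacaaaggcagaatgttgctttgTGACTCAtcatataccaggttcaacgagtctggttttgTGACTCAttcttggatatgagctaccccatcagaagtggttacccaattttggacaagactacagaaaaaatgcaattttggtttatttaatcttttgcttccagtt
FN1 upstream, lost: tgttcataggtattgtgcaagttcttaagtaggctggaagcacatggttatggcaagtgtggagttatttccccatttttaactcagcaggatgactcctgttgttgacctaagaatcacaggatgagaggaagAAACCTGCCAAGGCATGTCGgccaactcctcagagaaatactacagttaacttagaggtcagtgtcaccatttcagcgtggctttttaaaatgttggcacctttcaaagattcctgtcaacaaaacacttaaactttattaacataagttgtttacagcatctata

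**Figure D2:**
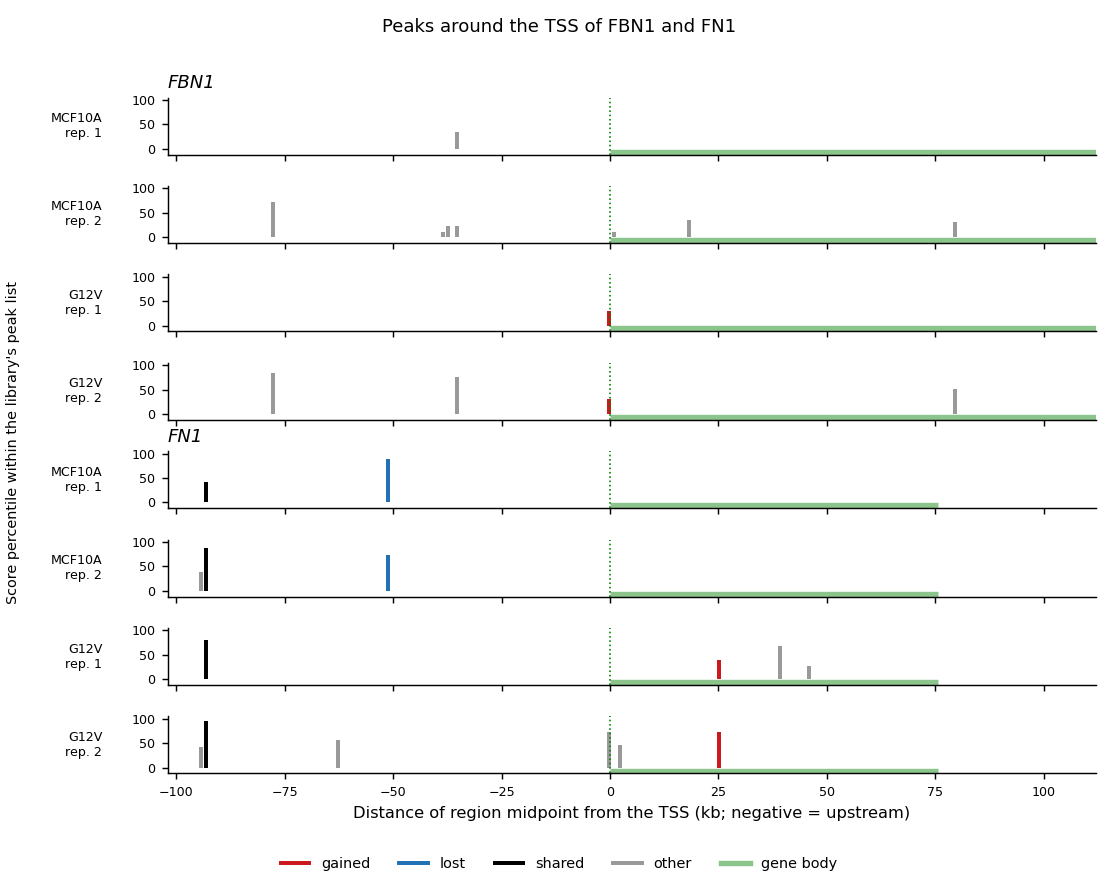
Regions around FBN1 and FN1 by distance of their midpoint from the TSS (horizontal axis, kb, negative is upstream), with 1 track per library and the score percentile as the height of each line. The gained lines stand at the FBN1 promoter (30.6 and 31.3) and in the FN1 gene body (40.3 and 74.0) of the G12V tracks, and the lost line stands upstream of FN1 in the MCF10A tracks (88.0 and 74.1).

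FBN2 encodes the second fibrillin, known best from development, and was the gene with the most regions, 21, over a body of 401 kb on chromosome 5. Its peaks numbered 5 in MCF10A replicate 1, 9 in MCF10A replicate 2, 6 in G12V replicate 1 and 18 in G12V replicate 2, and G12V replicate 2 alone accounted for 10 of the regions. The start of the GENCODE gene record lies 121 kb upstream of the start of its MANE Select transcript, the representative transcript of the gene, and had no peak in any library. The region at the MANE Select start, chr5:127872895-127875432, was shared and strong, at percentiles 85.9, 99.3, 98.6 and 99.8 in MCF10A replicates 1 and 2 and G12V replicates 1 and 2. It also covers the promoter of SLC27A6, a fatty acid transporter gene read in the opposite direction, so the region cannot be assigned to one of them. Its rank among shared regions was 72.4 and 95.2 in MCF10A and 96.1 and 98.2 in G12V. The ranks did not overlap, but MCF10A replicate 2 and G12V replicate 1 were close to each other.

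Close by, in an FBN2 intron, chr5:127870402-127870970 was gained, at percentile 58.9 in G12V replicate 1 and 49.4 in G12V replicate 2, but neither in the better-scoring 50% of each list nor with equal list sizes. Its letters are shown because it lies beside a fibrillin start that had a peak in every library (GRCh37, chr5:127870547-127870846, plus strand). An AP-1 heptamer, in capitals, lies at bases 42 to 48.
FBN2 intron, gained: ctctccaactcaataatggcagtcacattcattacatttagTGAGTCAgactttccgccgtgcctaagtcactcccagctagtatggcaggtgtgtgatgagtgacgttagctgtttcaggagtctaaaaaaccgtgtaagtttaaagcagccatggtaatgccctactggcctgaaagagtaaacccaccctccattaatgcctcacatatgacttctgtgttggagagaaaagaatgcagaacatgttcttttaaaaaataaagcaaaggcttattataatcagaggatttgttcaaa

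Deeper in FBN2, 2 further regions were shared. The one 317 kb downstream of the gene-record TSS stood at percentiles 27.5 and 27.7 in MCF10A and 57.8 and 58.2 in G12V, but its ranks among shared regions overlapped (15.8 and 3.38 in MCF10A, 34.0 and 5.60 in G12V). The one 222 kb downstream overlapped on both scales. A region over a coding exon 309 kb downstream was high in both MCF10A lists (89.2 and 82.6) and low in G12V replicate 2 (18.7), and G12V replicate 1 had no peak there.

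SPARC encodes a collagen-binding matricellular protein and had 20 regions, the most after FBN2. Its peaks numbered 9 in MCF10A replicate 1, 13 in MCF10A replicate 2, 7 in G12V replicate 1 and 15 in G12V replicate 2, so the groups overlapped. The promoter, chr5:151066236-151067247, was gained, at percentile 51.5 in G12V replicate 1 and 27.4 in G12V replicate 2. A region 1.24 kb downstream of that TSS, over an untranslated exon and a second annotated start of SPARC, was not particular to G12V cells. MCF10A replicate 1 had it at percentile 72.6, G12V replicate 1 at 5.84 and G12V replicate 2 at 82.5, and MCF10A replicate 2 lacked it. With every annotated protein-coding start used, the SPARC promoter was no longer gained for this reason.

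On the far side of SPARC, toward FAT2, the lost regions were found. The regions chr5:150992284-150993349 and chr5:150999315-151000101, 73.2 and 66.4 kb downstream of the SPARC TSS, were both lost. The first stood at percentile 81.6 in MCF10A replicate 1 and 56.4 in MCF10A replicate 2, and the second at 78.0 and 41.5. In the better-scoring 50% of each list the first was still lost and the second was not, and with equal list sizes neither was. Both lie nearer to the start of FAT2, a cadherin family gene, than to that of SPARC. Between them, a region 70.8 kb downstream was at percentiles 83.6 and 87.5 in MCF10A and at 25.3 in G12V replicate 2, and G12V replicate 1 lacked it. A region 96.4 kb downstream had the same order, at 74.4 and 72.6 in MCF10A and 12.2 in G12V replicate 2. At these 4 regions the parental replicate 1 library, the shortest list, thus had peaks that the longest list lacked or ranked low. Nearer to SPARC the order was mixed. A region 58 kb downstream was higher in MCF10A replicate 2 (71) than in G12V replicate 2 (16.3). The replicate 1 libraries lacked it. One 38.8 kb downstream was in MCF10A replicate 2 only (5.71). A region 34.3 kb downstream was at 26.1 in MCF10A replicate 2, 55 in G12V replicate 1 and 71.1 in G12V replicate 2, one 53.5 kb downstream was at 33.8 in MCF10A replicate 2 and 51.9 in G12V replicate 1, and one 27.5 kb downstream was in G12V replicate 2 only (65.7).

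The 3 SPARC windows are shown because the gene pairs a gained promoter with lost distal regions (GRCh37, 300 bp each). The promoter window is chr5:151066603-151066902 on the minus strand, the strand of the gene, and held none of the 4 motifs sought, which are described further on. The lost windows are chr5:150992782-150993081 and chr5:150999569-150999868 on the plus strand. Each has the TEAD hexamer, in capitals, at bases 214 to 219 of the first and 291 to 296 of the second.
SPARC promoter, gained: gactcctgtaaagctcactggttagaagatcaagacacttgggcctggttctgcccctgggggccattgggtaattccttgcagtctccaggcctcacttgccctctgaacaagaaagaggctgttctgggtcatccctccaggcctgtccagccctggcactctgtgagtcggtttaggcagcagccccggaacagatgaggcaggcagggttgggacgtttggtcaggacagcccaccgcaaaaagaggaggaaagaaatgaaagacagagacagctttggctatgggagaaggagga
SPARC downstream 1, lost: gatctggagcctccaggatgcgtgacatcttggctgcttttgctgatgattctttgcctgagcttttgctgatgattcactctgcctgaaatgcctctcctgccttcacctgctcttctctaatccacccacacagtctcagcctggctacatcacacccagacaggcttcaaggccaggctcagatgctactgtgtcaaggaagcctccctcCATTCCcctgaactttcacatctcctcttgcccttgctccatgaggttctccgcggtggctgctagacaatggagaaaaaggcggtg
SPARC downstream 2, lost: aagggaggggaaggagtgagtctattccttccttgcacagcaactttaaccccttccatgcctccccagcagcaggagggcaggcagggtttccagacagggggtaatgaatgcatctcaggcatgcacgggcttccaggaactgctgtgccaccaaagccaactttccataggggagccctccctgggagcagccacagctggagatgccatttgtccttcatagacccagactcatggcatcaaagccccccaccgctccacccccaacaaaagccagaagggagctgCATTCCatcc

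Upstream of SPARC, 3 regions were shared, all at or near ATOX1, which encodes a copper chaperone. The region at the common promoter of ATOX1 and G3BP1 had percentiles of 99.9 or 100 in every library. The regions 57.9 and 71.1 kb upstream ranked higher among shared regions in both G12V libraries (82.3 and 77.9, and 75 and 79.3) than in both MCF10A libraries (66.4 and 69.6, and 66.7 and 45.3).

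TNC encodes tenascin C, a large oligomeric glycoprotein of wound and tumour stroma. No peak was listed at TNC in MCF10A replicate 1, while MCF10A replicate 2 had 4, G12V replicate 1 had 3 and G12V replicate 2 had 11. Its promoter, chr9:117880233-117881794, had a weak peak in MCF10A replicate 2 (percentile 20.7) and in G12V replicate 1 (11.8), and a strong peak in G12V replicate 2 (87.4). The promoter held 2 of the 3 peaks of G12V replicate 1. A region 86.6 kb upstream stood at 58.6, 60.2 and 55.8 in these libraries. The remaining regions came from the longer lists. Of all genes, 1.79% had at least 3 peaks in G12V replicate 1 and none in MCF10A replicate 1, a pattern that was noticed at TNC and then counted. TNC had no gained or lost region.

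THBS1, an inhibitor of angiogenesis and activator of latent TGF-beta, had the fewest regions, 3. Its promoter, chr15:39872509-39873713, had a peak in MCF10A replicate 2 (85.7) and in G12V replicate 2 (74.5), and neither replicate 1 library had any peak at the gene. Of all regions found in both replicate 2 lists with a lower percentile between 70 and 80, 27.7% were in neither replicate 1 list.

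COL12A1 encodes a fibril-associated collagen and had peaks in every library but G12V replicate 1. MCF10A replicate 1 had 4 peaks, MCF10A replicate 2 had 5, G12V replicate 1 had 0 and G12V replicate 2 had 5. The promoter, chr6:75915335-75916463, was at percentile 85.9 in MCF10A replicate 1, 94.2 in MCF10A replicate 2 and 87.7 in G12V replicate 2. A region over the TMEM30A promoter, 78.0 kb upstream, was at 83.4, 97.3 and 93.5, and an intronic region 107 kb downstream at 75.2, 31.5 and 58.7 in the same libraries. G12V replicate 1 lacked all of them while G12V replicate 2 had them, so the 2 G12V libraries differed from each other here more than the cell types did. Among regions in both replicate 2 lists with a lower percentile between 80 and 90, 68.2% were also in G12V replicate 1, and 18.1% were in MCF10A replicate 1 but not in G12V replicate 1. That bin holds the COL12A1 promoter. For the bin from 90 to 100, which holds the TMEM30A promoter region, the shares were 91.2% and 7.08%, and for the bin from 30 to 40, which holds the intronic region, 22.3% and 13%. Of all genes, 0.244% had at least 4 peaks in MCF10A replicate 1 and none in G12V replicate 1. This pattern, too, was counted after it had been noticed.

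COL4A1 and COL4A2 are read in opposite directions from a common promoter on chromosome 13 and shared most of their regions. The peaks of COL4A1 numbered 1, 7, 2 and 9, and those of COL4A2 numbered 1, 9, 2 and 11, in MCF10A replicates 1 and 2 and G12V replicates 1 and 2. The promoter region, chr13:110959227-110961274, was at percentile 1.83 in MCF10A replicate 1, 89.1 in MCF10A replicate 2 and 58.1 in G12V replicate 2. A second, very weak promoter peak lay beside it in MCF10A replicate 2 (percentile 0.885). G12V replicate 1 lacked the promoter but had peaks in COL4A2 introns 39.4 and 89.3 kb from the COL4A1 start, at percentiles 47.0 and 58.9. These regions were also in MCF10A replicate 2 (94.8 and 38.7) and G12V replicate 2 (98.2 and 90.1), and MCF10A replicate 1 lacked them. Neither gene had a gained, lost or shared region.

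COL5A1 encodes the chain of type V collagen found in most tissues and had no peak at its promoter in any library. An intronic region 2.95 kb downstream of the TSS was in MCF10A replicate 2 (2.78) and G12V replicate 2 (66.5). The peaks numbered 1, 3, 0 and 2 in MCF10A replicates 1 and 2 and G12V replicates 1 and 2, and the groups overlapped.

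**Figure D3:**
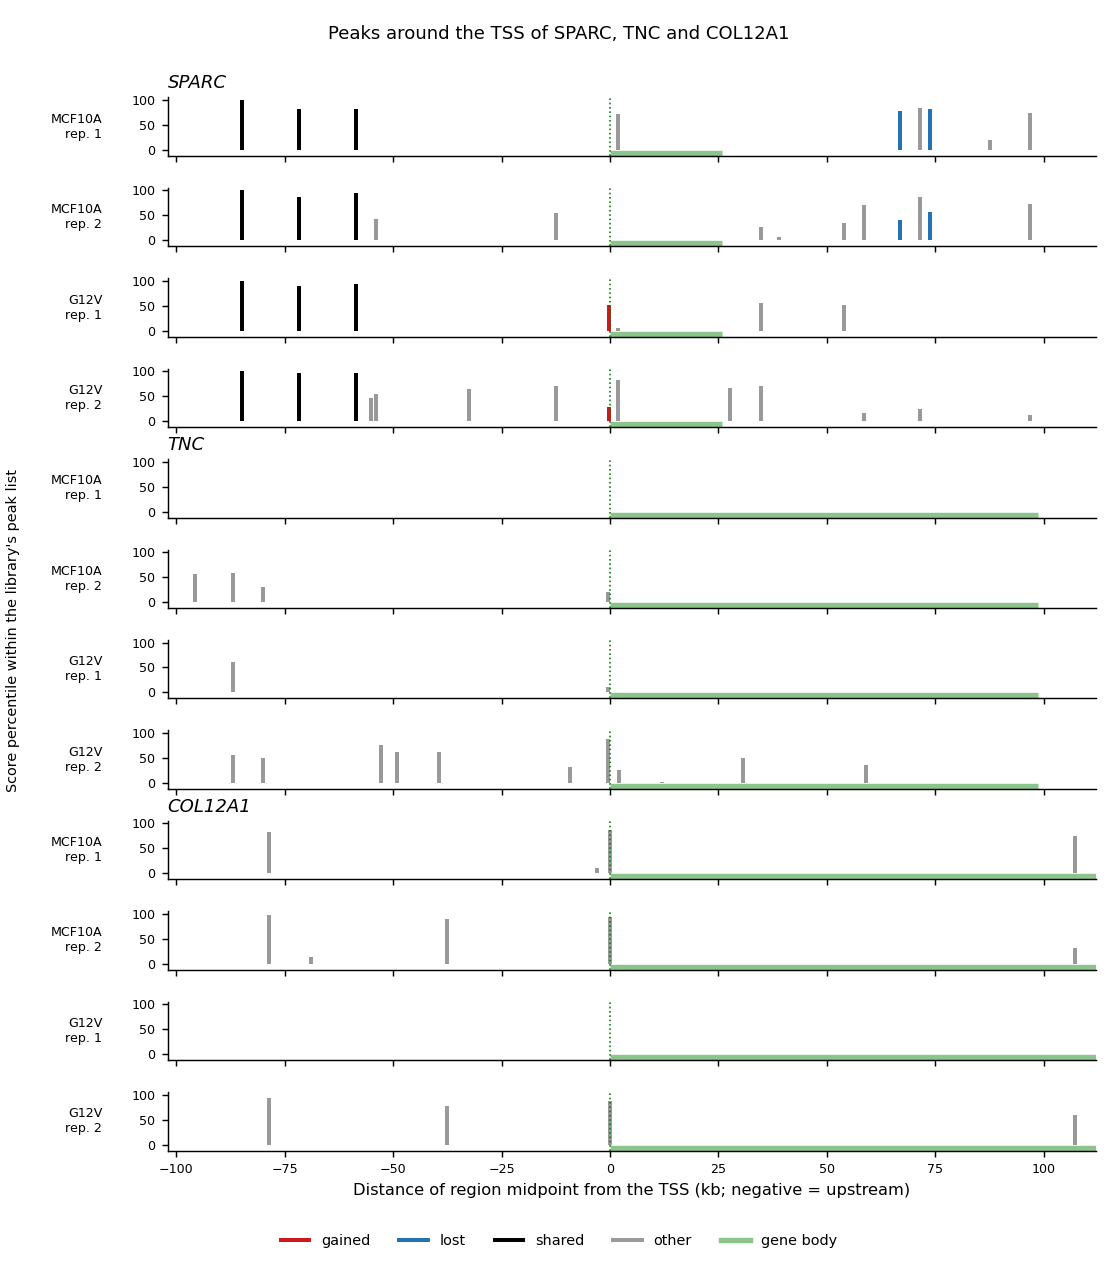
Regions around SPARC, TNC and COL12A1, drawn as for FBN1 and FN1 (horizontal axis, distance from the TSS in kb; vertical axis, score percentile; 1 track per library). SPARC shows the gained promoter in the G12V tracks and the lost regions in the MCF10A tracks 66.4 and 73.2 kb downstream, and the COL12A1 track of G12V replicate 1 is empty.

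Over the 10 promoters together, peaks at the gene-record TSS were listed for 2 genes in MCF10A replicate 1, 4 in MCF10A replicate 2, 3 in G12V replicate 1 and 7 in G12V replicate 2. Of all protein-coding genes, 21.3%, 41.6%, 23.1% and 44% had a promoter peak in these libraries. At the MANE Select starts, a set added after the data had been seen, the counts for the 10 genes were 4, 6, 4 and 9. There COL4A1 and COL4A2 were both counted through the same promoter region, which in MCF10A replicate 1 was a peak at percentile 1.83. Shares of all genes by library were not taken at these starts, so the counts are not read against them. The promoters of FBN1 and SPARC were gained, 2 of 10, where 0.861% of all genes had a gained promoter. None was lost (0.483% of all genes). None had a peak in all 4 libraries by the gene record (14.5% of all genes), and 3 had none in any library, FBN2, COL4A2 and COL5A1 (50.3% of all genes). By the MANE Select starts FBN2 had a peak in all 4 libraries (15.4% of all genes) and COL5A1 alone had none (46.8% of all genes). The 2 gained promoters rest on peaks of low or middling score. In the better-scoring 50% of each list neither was gained, and with equal list sizes the gained promoter was that of TNC.

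**Figure D4:**
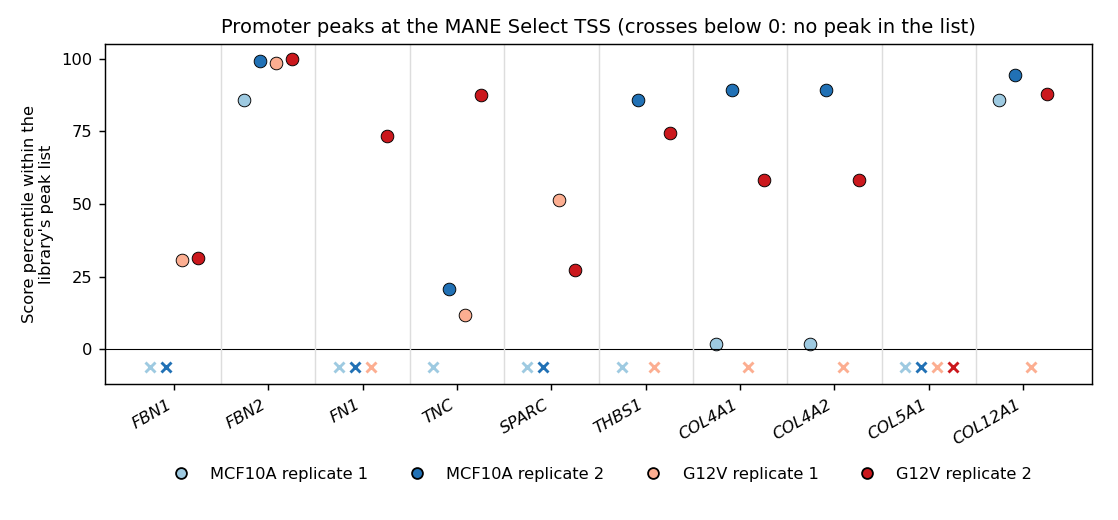
Score percentile of the best peak at the promoter of the MANE Select transcript (vertical axis) for each gene (horizontal axis), with 1 point per library, and crosses under 0 for no listed peak. FBN1 and SPARC have points in the 2 G12V libraries alone, FBN2 has 4 high points, and COL5A1 has only crosses.

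Across the 95 regions, 4 were gained (4.21%, against 3.20% of all regions), 3 were lost (3.16% against 2.14%) and 7 were shared (7.37% against 8.36%). These shares were near those of all regions, and the counts rest on single libraries. Each class sets a condition on every list, so leaving out a library loosens the class and by itself tends to raise the counts. Leaving out G12V replicate 1 turned 4 gained regions into 34 and 7 shared regions into 15. Leaving out MCF10A replicate 1 gave 15 lost and 12 shared regions. Leaving out a replicate 2 library gave 9 gained and 6 lost regions when it was that of MCF10A, and 8 gained and 11 lost regions when it was that of G12V. The 4 gained regions lay in FBN1, FBN2, FN1 and SPARC, and the 3 lost regions at FN1 and SPARC. At least 1 gained region was thus found at 4 of 10 genes (16% of all genes), at least 1 lost region at 2 (10%) and at least 1 shared region at 3 (39.1%). The 10 genes had a median of 9 regions each, against 6 for all genes. Every gained region was at a promoter or inside the gene, and every lost region was outside the gene. Of the 8 promoter regions 2 were gained, of the 41 distal regions in gene bodies 2 were gained and 3 shared, and of the 46 distal regions outside the genes 3 were lost and 4 shared. Place is given here by the gene-record TSS of the 10 genes. Of the regions called distal, 3 lay at the promoter of another gene, and 2 of those were shared. Shares by place over all regions are not given, so these few calls are not read as a pattern of the 10 genes.

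Most regions were not called in either direction. A single library accounted for 48 regions (50.5%, against 56.4% of all regions), and G12V replicate 2 alone for 30 (31.6% against 34.6%). Both replicate 2 libraries and no other had 18 (18.9% against 16.3%). All libraries but G12V replicate 1 had 8 (8.42% against 5.22%), 3 of them at COL12A1, and all but MCF10A replicate 1 had 5 (5.26% against 6.46%). Depth and biology of a replicate cannot be told apart from these lists.

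The 7 shared regions could be compared by strength. By rank among the shared regions of each library, 4 of 7 stood higher in both G12V libraries than in both MCF10A libraries (18.7% of all shared regions) and 0 stood lower (18.5%). The 4 were the region upstream of FN1, the FBN2 and SLC27A6 promoter and the ATOX1 regions 57.9 and 71.1 kb upstream of SPARC. By percentile within the whole list, 2 of 7 stood higher (18.5%) and 0 lower (6.94%), so the first count depends on the scale. The 2 were the FBN2 region 317 kb downstream and the ATOX1 region 71.1 kb upstream of SPARC, which alone was higher on both scales.

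**Figure D5:**
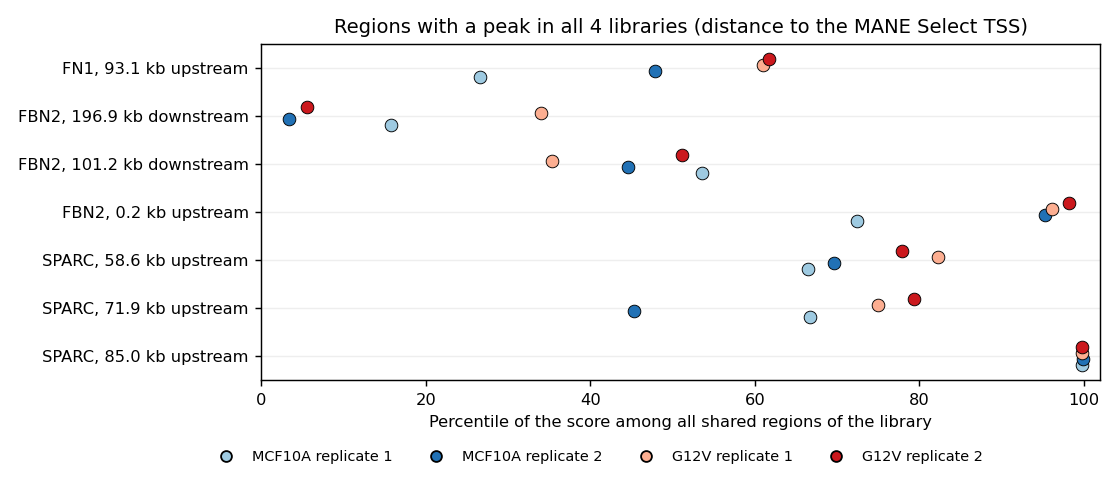
Percentile of the peak score among the 5090 shared regions of a library (horizontal axis) for the 7 regions at the 10 genes with a peak in all 4 libraries (rows, by gene and distance to the MANE Select TSS). Both G12V points lie to the right of both MCF10A points in 4 rows, those of FN1 (61.0 and 61.7 against 26.6 and 47.9), the FBN2 start and 2 of SPARC.

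Base composition and motifs of the 95 regions were those of accessible chromatin at large. In 300 bp at the best peak of each region the median GC content was 47.7%, as over all 60886 regions, with 60.2% at promoters and 46.7% elsewhere. The AP-1 heptamer (TGACTCA or TGAGTCA, which are each other's reverse complement) was in 27 regions (28.4%, against 27.5% of all regions). The TEAD hexamer (CATTCC, both strands) was in 20 (21.1% against 20.1%). A p53 match with up to 3 mismatches was in 4 (4.21% against 2.56%), and a CTCF match with up to 1 mismatch was in 11 (11.6% against 12.2%). Each motif was sought on its own, and a match is a string and not a bound site. The p53 match of the lost FN1 region falls in a class where such matches were more frequent, 14.4% of all lost regions against 0.974% of all gained regions. The AP-1 and TEAD matches in the printed windows are no mark of a class. AP-1 was in 27.9% of all gained and 28.8% of all lost regions, and TEAD in 22.2% and 22.6%. For CTCF the shares were 15.9% and 6.14%.

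A wider list of 78 matrix genes, grouped by role and all found in the annotation, placed the 10 in their pathway. At least 1 gained region lay at 23 of them (29.5%) and at least 1 lost region at 10 (12.8%), against 16% and 10% of all genes, and LTBP1, FBLN2, NID1, COL5A2 and THBS2, 5 genes, had both. Values below are for the region of each gene with the highest lower percentile of its 2 libraries. No promoter among the 78 was gained (0.861% of all genes) or lost (0.483% of all genes). The 40 regions were therefore all distal to the gene concerned, 28 gained and 12 lost, and 6 of the gained ones were at the promoter of another gene.

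Among the 17 genes of microfibrils and elastic fibres, the partners of the fibrillins, 4 had a gained and 3 a lost region. EFEMP1, a fibulin, had a gained region 68.3 kb from its TSS at percentiles 86.7 and 77.7 in G12V replicates 1 and 2. LTBP1, which tethers latent TGF-beta to fibrillin, had an intronic one at 49.7 and 81.7, and FBLN2 and FBLN5, both fibulins, had one each at 39.7 and 56.5 and at 50 and 36.8. Of the 3 TGF-beta ligand genes none had either. Of 8 fibronectin receptor genes, 1 had a gained and 1 a lost region, and the lost one lay 20.2 kb from ITGB6, an epithelial integrin chain, at 55.3 and 78.3 in MCF10A replicates 1 and 2.

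Among 15 basement membrane genes, 6 had a gained and 3 a lost region. The gained ones lay at LAMA4 (70.7 and 52.3), LAMC1 (33.7 and 43.2) and NID1 (70.9 and 38.4), at AGRN (66.4 and 45.3, at the promoter of PLEKHN1) and at the neighbouring COL4A3 and COL4A4, which had 1 region in common (42.8 and 45.8). The lost ones that were named lay at the laminin gene LAMA1 (32.2 and 58.1) and at HSPG2, which encodes perlecan (20.4 and 45.3). Among 11 fibrillar and associated collagens 3 had a gained region, with COL5A2, the partner chain of COL5A1, at 63.6 and 87.6 and COL6A3 at 16.7 and 62.6, and 1 had a lost region. Of 9 genes of collagen folding and crosslinking 2 had a gained and 0 a lost region.

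The 15 matricellular genes, the group of SPARC, TNC and THBS1, had 7 with a gained and 2 with a lost region. TGFBI, a TGF-beta induced adhesion protein, had the highest-scoring one of the list, an intronic region 28.4 kb from its TSS, chr5:135393049-135394933, at percentile 91.1 in G12V replicate 1 and 90.4 in G12V replicate 2. CCN2, a YAP target and growth factor of connective tissue, had one 3 kb from its TSS at 59.0 and 59.8. The related CCN1 had instead a lost region 8.15 kb from its TSS, at 76.6 in both MCF10A libraries, and THBS2 had a lost intronic region at 76.0 and 66.1.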

How the data were processed

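ATAC-seq had been done on 2 replicates each of MCF10A and G12V cells. By the methods of the study, the authors used Bowtie for alignment, kept uniquely placed reads, shifted them so that a read marks the middle of the insertion, and ran MACS to call peaks. The deposited lists, 1 per library, are in hg19 and hold a score per peak, the MACS p-value on a negative log10 scale times 10, with no read counts. Scores depend on depth, so they were used as percentiles within a list.

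Peaks on the 22 autosomes and X were merged into regions where they overlapped by at least 1 bp. Gene starts were those of GENCODE release 44 on GRCh37, for 20098 protein-coding genes. A region was at a promoter if it touched the 1000 bp before or the 500 bp after the TSS, and otherwise distal. Distances run from the TSS to the nearest edge of a region. Motifs were sought in 300 bp centred on the best-scoring peak. Counts of peaks for FBN1 and FN1 were set against each other over libraries in a two-sided exact permutation test, and presence of peaks was read against all regions or genes with no test. With 2 libraries per cell type, a p-value only places the observed split among the possible splits of these libraries, and no p-value under 0.05 was possible.

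The members and gene lists were chosen with earlier results of these data known. Text named all 10 members, their gained, lost and promoter regions, and, of the 78 further matrix genes, the 20 whose gained or lost region had the highest lower percentile. The values of 1 of these 20 and 1 promoter sequence are not reported here. The steps were checked on simulated data and run with Python 3.11.15, pandas 2.3.3, scipy 1.17.1 and pysam 0.24.0. PECAM1, 1 of 4 endothelial markers, was not matched in the annotation and was left out.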

Additional observations from a re-analysis of the deposited data

How the results depend on the processing

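Counts of called regions moved with list length and with single libraries, and the cause was not tested. In the better-scoring 50% of each list, 5 regions were lost (3 with the full lists), 0 promoters were gained (2) and the FBN1 difference in peaks, G12V minus MCF10A, reversed from -1.5 to 1. With equal list sizes of 12888 peaks, 5 regions were lost, 1 promoter was gained and the FBN1 difference reversed to 0.5. Each setting kept the class of 2 of the 7 gained or lost regions. These were the lost FN1 region in both, with the first lost SPARC region in the better-scoring 50% and the gained FN1 region with equal list sizes. With every protein-coding TSS, 1 promoter was gained, that of FBN1. A window of 50 kb left 0 lost and 3 shared regions, and a window without the gene body left 4 shared regions. By list percentile, 2 shared regions stood higher in G12V, against 4 by rank. Leaving out each library in turn gave 5 to 34 gained, 3 to 15 lost and 7 to 15 shared regions, 2 to 3 gained promoters, an FBN1 difference of -4.5 to 1.5 and an FN1 difference of 2.5 to 3.5. Fewer lists make each class easier to meet, so higher counts of regions and promoters there follow in part from the rule. The FN1 difference stayed between 2 and 3.5 in every setting run. Other overlap and merging rules and the MANE Select starts, the last chosen after seeing the data, kept these counts within 1.5 times.

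The libraries share only a replicate number, which no label ties to a common batch. With the replicate number as a block, within the replicate 1 pair 15 regions were gained and 14 lost, with an FBN1 difference of 0. Within the replicate 2 pair 36 were gained, 16 lost and 38 shared. Over both pairs the blocked differences were -1.5 for FBN1 (exact paired permutation test, p = 1) and 3 for FN1 (p = 0.5, the smallest possible). The lists hold no counts, so the read depth that limits each absence is unknown.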
